A study of Mus musculus with 24 samples.

Results

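Dcaf13, Ago2 and Fam120b are 3 genes, each read by 1 probe, of the 9834 genes with a single symbol on a mouse cDNA array that gave 16148 rows of genes and unnamed probes in all. They form a group because their ratios of mutant over wild type were high in skeletal muscle, so their muscle values below are a description and carry no test. The values come from Nur77-/- mice and wild-type mice (Nur77+/+), compared in skeletal muscle, brown adipose tissue, heart, lung, spleen and testis on 24 two-colour arrays, 4 an organ. Nur77 is the nuclear receptor encoded by Nr4a1, and the mutants lack it in the whole animal. The design text gives 1 pool of 7 mutant mice against 1 pool of 7 wild-type mice, while the labelling protocol names 6 control animals for the reference pool, and the difference could not be settled. The mutant pool was labelled with the dye Cy5 on replicates 1 and 2 of each organ and with Cy3 on replicates 3 and 4. The sources used here give no age, sex or strain background. The 4 arrays of an organ repeat 1 comparison between the same pools, so their spread is that of labelling and hybridisation and says nothing of the spread between animals.

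Dcaf13 encodes a WD-repeat protein of the nucleolus that works in the small subunit processome, the particle that matures the RNA of the small (40S) ribosomal subunit, and it is also described as a substrate receptor of the CRL4 ubiquitin ligases. Ago2 encodes Argonaute 2, the protein that holds a microRNA or a small interfering RNA and can cut the target RNA. Fam120b encodes a constitutive coactivator of PPAR gamma, the nuclear receptor that drives fat cell formation. Skeletal muscle depends on ribosome production for growth and on microRNAs for fibre identity, and PPAR receptors take part in its handling of fatty acids.

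The ratios are log2 values, so that 1 is a doubling, and each array was centred on the median of its own rows. Mutant over wild type is the likely direction of the deposited ratios but is not stated with them: its basis is Nr4a1, which lay below 0 on 21 of the 22 arrays that measured it, with both dye orientations among them. Since it set the direction, its values are a description: the fitted ratio was -1.34 ± 0.30 (SE, 3 arrays) in skeletal muscle. From the weakest, it was -0.20 for testis, -0.37 for lung, -0.66 for heart, -0.70 for spleen and -1.07 for brown adipose tissue. Values of the members are present on all 24 arrays, which holds for 3630 rows (22.5%). Before centring, the medians of the muscle arrays were -0.435, -0.777, -0.008 and 0.672 for replicates 1 to 4, and replicates 2 and 4 also had the widest spread, with median absolute deviations of 1.092 and 1.234 against 0.885 and 0.650. Those of the other organs lay between 0.241 and 0.36 in brown adipose tissue and between 0.726 and 0.961 in spleen. Heart replicate 2 carries a wild-type label of skeletal muscle. On that array the skeletal muscle fibre markers exceeded the cardiac markers by 0.05 in the medians, against 0.10 to 0.37 on the other heart arrays, and the array was kept. The values are ratios and hold no expression levels, so the labelled organs could not be checked against the levels of their markers.

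Dcaf13 and Ago2 both lie on chromosome 15, which also carries Nr4a1, and Fam120b lies on chromosome 17. The RefSeq promoter table (GRCm38.p6) matched 1 of the 3 genes, Fam120b. Its promoter is shown because Nur77 is a DNA-binding receptor, so that a reader can see the bases just before the start of the gene. The table holds 2 start sites for this gene, with overlapping windows. The 250 bases before the first, at chr17:15395952-15396201 on the plus strand, are printed 5′ to 3′ with every CG pair in capitals.
Fam120b: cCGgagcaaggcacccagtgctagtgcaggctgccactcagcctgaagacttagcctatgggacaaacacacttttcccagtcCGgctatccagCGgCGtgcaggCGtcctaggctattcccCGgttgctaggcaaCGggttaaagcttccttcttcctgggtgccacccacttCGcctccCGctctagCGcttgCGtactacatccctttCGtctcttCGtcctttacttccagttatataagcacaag
The printed window holds 13 CG pairs and 56.0% G and C, against medians of 6 pairs and 52.0% over 27025 promoter windows of the same length. Searched on both strands, it holds no NBRE (AAAGGTCA, the element that binds Nur77 as a monomer, present in 1.31% of all windows). It also holds no GC box (GGGCGG, 32.9%), no TATA box of the form TATAAA (13.0%) and no E-box (CANNTG, 66.0%). Other forms of the TATA box were not searched. The window before the second start, chr17:15395996-15396245, holds 14 CG pairs, 52.8% G and C and 1 GC box on the plus strand, from 15 to 10 bases before that start. It holds none of the other 3 motifs in the forms searched. A match is a description of the letters, and its lack says nothing on binding of the factor.

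In skeletal muscle all 3 genes were higher in the mutant pool on each of the 4 arrays, whichever dye it carried. Fold values below are 2 raised to the mean ratio. Of the 7628 muscle rows with 4 values, 10.1% were above 0 on all 4 arrays, and 0.97% were above 1 on all 4, as the members were. These shares are given for scale only, since the members were chosen on this contrast. In these organ homogenates, more cells of a type and more RNA per cell cannot be told apart.

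Dcaf13, the ribosome assembly factor, had centred ratios of 2.39, 3.47, 2.53 and 1.18 on muscle replicates 1 to 4. The mean was 2.39 ± 0.94 (SD, n = 4 arrays), 5.25-fold higher in the mutant pool, and 43 of the 7628 rows had a higher mean. Replicate 4 stood lowest and replicate 2 highest. As deposited, without centring, the 4 values were 1.96, 2.69, 2.52 and 1.85 and their mean was 2.26 ± 0.41, so most of the difference between replicates 2 and 4 entered with the centring. Dcaf13 exceeded 96.1%, 98.1%, 96.1% and 74.0% of all rows on the 4 arrays. On replicate 4, which had the widest spread, it therefore stood less far out than on the others.

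Ago2, the Argonaute, had centred ratios of 1.83, 2.16, 1.58 and 1.43 in muscle. The mean was 1.75 ± 0.32 (SD, n = 4), 3.37-fold higher, and 171 rows had a higher mean. Its 4 arrays lay close together: 3.09% of the muscle rows with 4 values had a smaller SD, and the median SD of those rows was 1.077. As deposited the values were 1.40, 1.39, 1.57 and 2.10, with replicate 4 highest in place of lowest. It exceeded 92.4%, 92.8%, 89.4% and 78.5% of all rows on the 4 arrays.

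Fam120b, the PPAR gamma coactivator, had centred ratios of 1.41, 2.51, 2.42 and 1.28 in muscle. The mean was 1.90 ± 0.65 (SD, n = 4), 3.74-fold higher, and 119 rows had a higher mean. Replicates 2 and 3, of opposite dye orientation, were high and replicates 1 and 4 were low. As deposited the values were 0.98, 1.73, 2.41 and 1.95. It exceeded 88.0%, 94.9%, 95.6% and 75.6% of all rows on the 4 arrays.

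The order of the dye orientations depended on the centring. After centring, with Cy5 and with Cy3 on the mutant pool, the muscle means were 2.93 and 1.86 for Dcaf13, 2.00 and 1.51 for Ago2, and 1.96 and 1.85 for Fam120b, each over 2 arrays. As deposited, the same means were 2.32 and 2.19 for Dcaf13, 1.39 and 1.84 for Ago2, and 1.35 and 2.18 for Fam120b, so that Cy3 was the higher for Ago2 and Fam120b. An effect of the dye and the shift of each array's median cannot be told apart on these 4 arrays. Without muscle replicates 2 and 4, whose medians lay farthest from 0, the means were 2.46, 1.71 and 1.91. The choice of the genes on these arrays leaves little room for another outcome, and the values are given as a description. After centring and scaling every array to the same spread, the muscle value was 1.54 for Dcaf13, 1.10 for Ago2 and 1.24 for Fam120b, each over 1.5 times smaller.

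**Figure D1:**
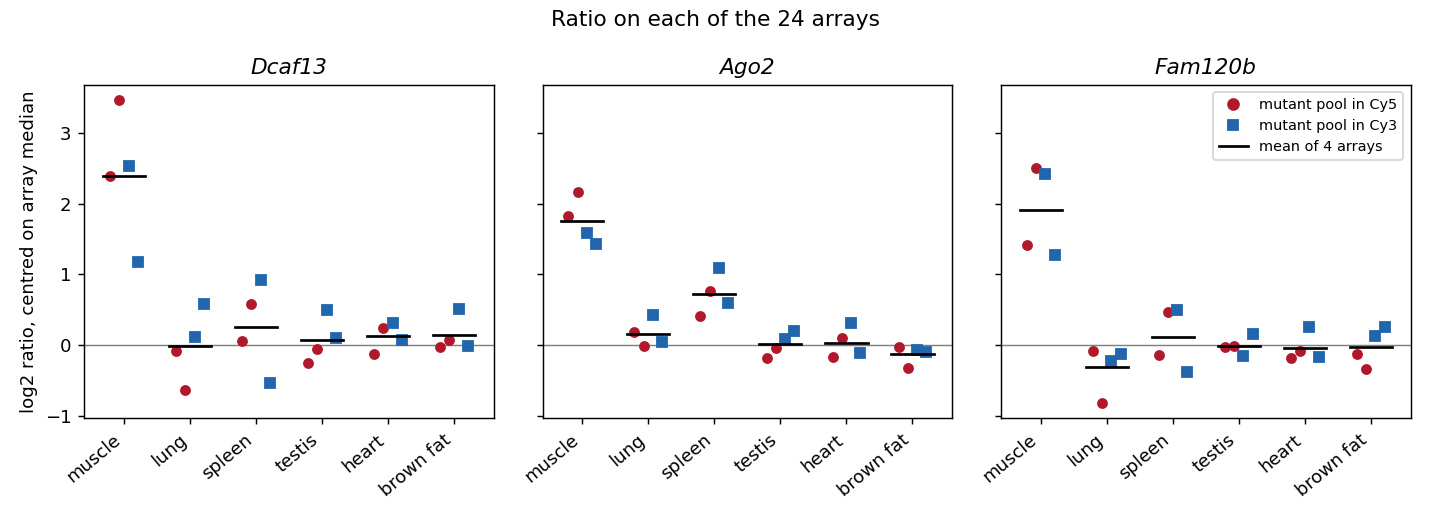
Centred log2 ratio of mutant over wild type (vertical axis) of Dcaf13, Ago2 and Fam120b by organ, 1 point an array: red circles have the mutant pool in Cy5, blue squares in Cy3, and the black line is the mean of 4 arrays. The 4 muscle points of each gene lie above its 20 points from the other organs, which spread around 0.

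In centred ratio, the lowest muscle array of each gene lay above every array of the 5 other organs. For Dcaf13 the lowest muscle value was 1.18, against a range of -0.64 to 0.92 and a median of 0.07 over the other 20 arrays. For Ago2 the lowest muscle value was 1.43, against -0.33 to 1.08 with a median of 0.06. For Fam120b it was 1.28, against -0.82 to 0.50 with a median of -0.11. Such a gap between muscle and the rest occurred in 53 of the 3630 rows measured on all arrays (1.46%), and it is a description, since muscle was part of the choice. By the share of rows exceeded on each array, the gap was absent for Dcaf13 and Ago2. On muscle replicate 4 Dcaf13 exceeded 74.0% of rows, against 83.7% on brown adipose tissue replicate 3 and 82.3% on testis replicate 3. Ago2 exceeded 78.5% on muscle replicate 4, against 83.6% on spleen replicate 3. Fam120b kept the gap, at 75.6% on muscle replicate 4 against 69.2% on spleen replicate 3, its highest elsewhere. Outside muscle, Dcaf13 lay above 0 on 12 of the 20 arrays, Ago2 on 11 and Fam120b on 6.

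**Figure D2:**
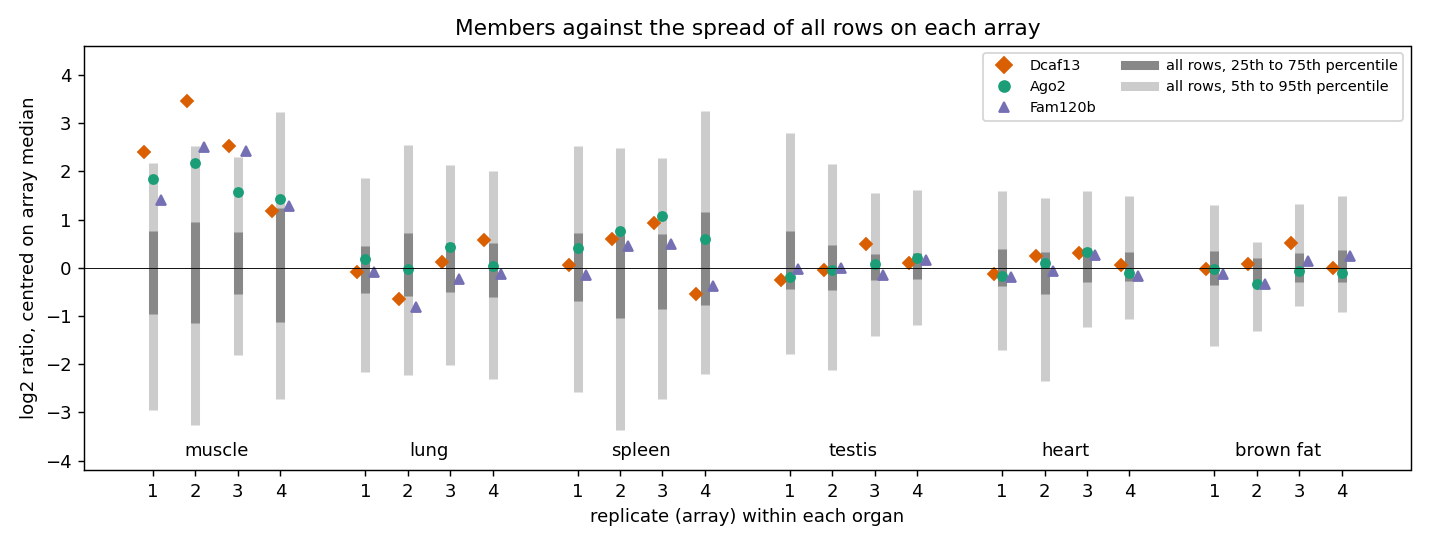
Each array's centred log2 ratios (vertical axis), with a light bar from the 5th to the 95th percentile of all rows, a dark bar from the 25th to the 75th, and Dcaf13 (diamond), Ago2 (circle) and Fam120b (triangle) drawn over them. In muscle the bars are wide, and the members lie above the dark bar on replicates 1 to 3 while on replicate 4 Ago2 and Fam120b lie just above it and Dcaf13 just inside.

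The genes were chosen on their muscle ratios, and the 5 other organs were tested. These organs are not wholly independent of the choice, which drew on earlier fits of these data. A fit that shares 1 spread over organs can favour genes with little scatter outside muscle. None of the 15 pairs of member and organ passed limma's moderated test at an adjusted p of 0.05, where p was adjusted over all rows tested in that organ. Over all rows the same test called 0.105% in lung, 2.51% in spleen and 0.00737% in testis. In heart and brown adipose tissue it called 0 of 13844 and 0 of 15223 rows. At an unadjusted p under 0.05 these organs had 403 and 147 rows, and limma with array weights called 0 and 4. Nr4a1, the gene that the mutants lack, did not pass this test there either, at -0.66 in heart and -1.07 in brown adipose tissue. A miss in these organs therefore says little of a member. The standard error was 0.25 for Dcaf13, 0.19 for Ago2 and 0.21 for Fam120b in every organ, since the fit shares 1 spread over organs.

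Dcaf13 was at -0.09, -0.64, 0.11 and 0.58 on the 4 lung arrays and at 0.05, 0.59, 0.92 and -0.54 on the 4 spleen arrays. In both organs arrays fell on either side of 0, and the means were -0.01 ± 0.51 and 0.25 ± 0.64 (SD, n = 4). Testis arrays were at -0.25, -0.06, 0.50 and 0.10, with a mean of 0.07 ± 0.32. Heart arrays were at -0.12, 0.24, 0.32 and 0.07, with a mean of 0.13 ± 0.20, and brown adipose tissue arrays at -0.02, 0.07, 0.51 and -0.01, with a mean of 0.14 ± 0.25. The largest of these means, that of spleen, had a 95% interval of -0.27 to 0.78 (limma, adjusted p = 0.628), and it was 0.0419 without replicate 3 and 0.60 without replicate 4. Ordered by mean, muscle came first for Dcaf13, then spleen, brown adipose tissue, heart, testis and lung, and the arrays of each pair of neighbours after muscle overlapped.

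Ago2 was above 0 on all 4 spleen arrays, at 0.42, 0.76, 1.08 and 0.60. The mean of 0.72 ± 0.28 (SD, n = 4) is 1.64-fold and had a 95% interval of 0.32 to 1.11 (limma, adjusted p = 0.0527), so it missed the threshold. The adjusted p ranged from 0.0349 to 0.914 over the alternative settings: it was 0.0349 with values above 12 kept, 0.668 with array weights and 0.914 with spleen fitted alone. Spleen arrays had a wider spread than those of the other 4 organs in this fit, and 7.01% of spleen rows with 4 values were above 0 on all 4. In the same spleen comparison 8 of 8 genes of the exocrine pancreas, a neighbouring organ, were lower in the mutant pool, with a median of -4.93, and the part of this difference in the Ago2 value was not tested. In lung Ago2 was at 0.19, -0.02, 0.42 and 0.04, with a mean of 0.16 ± 0.20, and its highest array lay level with the lowest of spleen. Testis arrays were at -0.19, -0.04, 0.08 and 0.20 (mean 0.01 ± 0.17) and heart arrays at -0.17, 0.10, 0.32 and -0.12 (mean 0.03 ± 0.22). Brown adipose tissue was below 0 on all 4 arrays, at -0.03, -0.33, -0.07 and -0.10, with a mean of -0.13 ± 0.14 (limma, adjusted p = 1). Being below 0 on all 4 arrays held for 5.92% of the rows there. Ordered by mean, muscle came first for Ago2, then spleen, lung, heart, testis and brown adipose tissue, and the arrays of each neighbouring pair after muscle overlapped.

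Fam120b was below 0 on all 4 lung arrays, at -0.09, -0.82, -0.23 and -0.12. Its mean there was -0.31 ± 0.34 (SD, n = 4), with a 95% interval of -0.76 to 0.13 (limma, adjusted p = 0.766), and 6.78% of lung rows were below 0 on all 4 arrays. Spleen arrays were at -0.14, 0.46, 0.50 and -0.38, with a mean of 0.11 ± 0.44. Testis arrays were at -0.03, -0.01, -0.16 and 0.16 (mean -0.01 ± 0.13), which is the narrowest spread of the gene. Heart arrays were at -0.19, -0.08, 0.26 and -0.18 (mean -0.05 ± 0.21). Brown adipose tissue arrays were at -0.12, -0.34, 0.13 and 0.25 (mean -0.02 ± 0.26). Ordered by mean, muscle came first for Fam120b, then spleen, testis, brown adipose tissue, heart and lung, again with overlap between the arrays of neighbours after muscle.

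**Figure D3:**
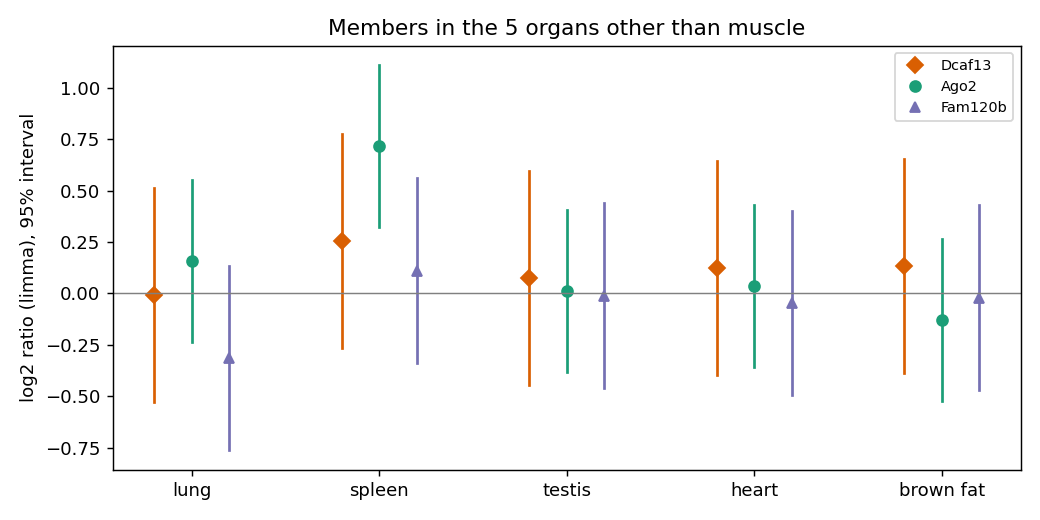
limma estimate of the centred log2 ratio of mutant over wild type (point) and its 95% interval (line) for Dcaf13, Ago2 and Fam120b in the 5 organs outside muscle, 4 arrays each. The interval of Ago2 in spleen, 0.32 to 1.11, lies above 0, and the others span it.

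The highest upper bounds of these intervals were 0.78 for Dcaf13 and 1.11 for Ago2, both in spleen, and 0.56 for Fam120b. These bounds rest on the spread shared over organs. For Dcaf13 the arrays scattered more in spleen (SD 0.64) than in heart (SD 0.20), so its spleen bound may be too low. Differences among the 5 organs did not pass for any member. The F test gave F = 4.25 for Ago2 (limma, unadjusted p = 0.0145, adjusted p = 0.401), and adjusted p-values of 1 for Dcaf13 and 0.983 for Fam120b, where 0.402% of all rows passed. Averaged over the 5 organs, the ratio was 0.16 ± 0.15 (SE) for Ago2, 0.12 ± 0.10 for Dcaf13 and -0.06 ± 0.11 for Fam120b. None of them passed (limma, adjusted p = 0.826, 0.823 and 0.91), nor did any of the 8454 rows, of which 378 had an unadjusted p under 0.05. The dye term, the mean difference between arrays with Cy5 and arrays with Cy3 on the mutant pool, was -0.28 ± 0.22 for Dcaf13, -0.18 ± 0.17 for Ago2 and -0.16 ± 0.19 for Fam120b (limma, adjusted p = 0.72, 0.781 and 0.832). It passed for 0.166% of all rows.

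The other genes of each member's pathway were read from lists chosen with earlier results of these data known, and they were tested in muscle in a fit over all 24 arrays. That fit called 3.73% of 11974 rows higher and 0.877% lower, 4.61% together. The median of all rows was -0.0048, and 18.9% of them had an unadjusted p under 0.05. Of the list for the small subunit processome and 40S assembly, the ribosome pathway of Dcaf13, 25 of 51 genes were tested. Of these 1 rose and 0 fell, 4 had an unadjusted p under 0.05, and the median was 0.06. The gene that rose was Tsr1, a factor of late 40S maturation, at 1.003, 0.64, 2.20 and 4.54 on the 4 arrays and 2.10 ± 0.43 (SE) in the fit (limma, adjusted p = 0.00573). It did not pass with array weights (1.65, limma, adjusted p = 0.0672), after scaling (0.134), or without replicate 1 (0.05004) or replicate 3 (0.0721). Its highest array was replicate 4, where Dcaf13 was lowest. The other extremes of the list did not pass: the helicase Ddx52 was at 1.72 (limma, adjusted p = 0.113), the methyltransferase of ribosomal RNA Fbl at 1.54 (0.367), Ngdn at -1.37 (0.255) and the methyltransferase Emg1 at -1.39 (0.313).

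Of the CRL4 ubiquitin ligase list, the second setting in which Dcaf13 is described, 19 of 27 genes were tested, 1 rose, 0 fell, 3 had an unadjusted p under 0.05 and the median was 0.13. The gene that rose was Dcaf8, another substrate receptor read by 2 probes, at 1.98, 3.15, 0.25 and 1.34 on the 4 muscle arrays. Its ratio was 1.68 ± 0.31 (SE; limma, adjusted p = 0.00259), and it passed with array weights (0.0192) but not after scaling (0.95, limma, adjusted p = 0.103). It also missed the threshold without replicate 1 (limma, adjusted p = 0.0504) or replicate 2 (0.0835). With muscle fitted alone only 1 of all rows was called higher, so Tsr1 and Dcaf8 cannot both pass there. In spleen Dcaf8 rose as well, at 1.13 ± 0.23 and above 0 on 4 of 4 arrays (limma, adjusted p = 0.0191), which did not hold with array weights (0.4), after scaling (0.617), or without replicate 2 (0.117) or replicate 3 (0.16). The remaining extremes in muscle did not pass. Phip was at 1.39 (limma, adjusted p = 0.367) and Wdtc1, a further receptor, at 0.75 (0.654), while the RING subunit Rbx1 was at -1.41 (0.189) and the scaffold Cul4a at -2.18 (0.196).

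Of the RNA silencing list, which holds the partners of Ago2, 18 of 31 genes were tested in muscle and 0 passed (limma). At an unadjusted p under 0.05 there were 7, array weights gave 0, and the median was 0.29. Ago4, another Argonaute read by 2 probes, was at 0.60, 0.57, 0.24 and -1.49 on the 4 arrays and -0.02 in the fit (limma, adjusted p = 0.986) and it lay below Ago2 on each of the 4 arrays. Ago2 was chosen for its high muscle ratio, so this order is a description. Lin28a, which blocks the processing of let-7 microRNAs, was at 1.93 (limma, adjusted p = 0.246) and the decapping scaffold Edc4 at 1.05 (0.0711). Drosha, the nuclear microRNA processing enzyme, was at 0.89 (0.134) and its partner Dgcr8 at -0.69 (0.211). Tnrc6b, a protein that Argonautes recruit to silence a target, was at -2.35 (limma, adjusted p = 0.125). Ago4 and Drosha are named beside the 2 highest and 2 lowest genes, and were chosen after their values were seen.

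Of the list of Fam120b relatives and PPAR gamma coactivation, 18 of 30 genes were tested in muscle and 0 passed (limma). Here 3 had an unadjusted p under 0.05, array weights gave 0, and the median was 0.45. The brown fat regulator Prdm16 was at 1.08 (limma, adjusted p = 0.196) and the acetyltransferase Crebbp at 1.02 (0.469), while the retinoid receptor Rxrg was at -1.05 (0.542) and the coactivator Ncoa6 at -2.30 (0.263). In spleen Rxra, the partner with which PPAR gamma binds DNA, fell by 2.11 ± 0.48 (SE, below 0 on the 3 arrays with a value; limma, adjusted p = 0.0395), which did not hold with array weights (0.552), after scaling (0.993), with values above 12 kept (0.05058), without a dye term (0.104), with a dye term for each organ (0.05783), or without replicate 2 (0.0734) or replicate 4 (0.0938). Apart from Dcaf8 and Rxra in spleen, 0 genes of the 4 lists passed in the 5 organs outside muscle. The array-weighted fit called 0 genes of the 4 lists there.

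**Figure D4:**
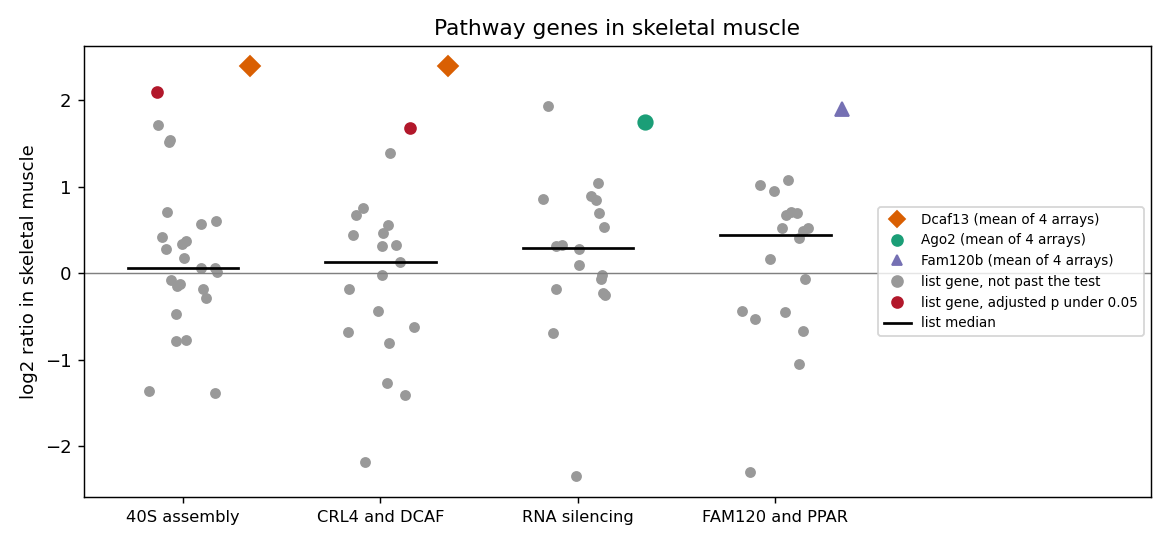
log2 ratio of mutant over wild type in skeletal muscle (limma estimate) of the tested genes of the 4 pathway lists, 1 point a gene, red where the adjusted p was under 0.05, with a black line at each list's median and the members' means of 4 arrays alongside. Tsr1 and Dcaf8 are the red points. Dcaf13 and Fam120b lie above every tested gene of their lists and Ago2 lies below Lin28a, the highest of its list. The members were chosen for high muscle ratios, so their place against the lists is a description.

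The nearest tested genes along the chromosome, 2 on each side of a member, did not pass in muscle. Of these 12 neighbours 0 passed (limma), 2 had an unadjusted p under 0.05 and array weights gave 0. The highest were Tbp, the TATA-binding protein near Fam120b, at 0.95 (limma, adjusted p = 0.0898) and the proton pump subunit Atp6v1c1 near Dcaf13 at 0.78 (0.17). Psmb1, the first tested gene after Fam120b, was at -0.12. The polyamine regulator Azin1 near Dcaf13 was at -0.52, and Trappc9 and Chrac1 near Ago2 were at 0.01 and -0.49. On chromosome 15 without the members, 334 genes were tested in muscle. Of these 12 rose (3.59%) and 3 fell, with a median of -0.02, against 3.73% of all rows that rose and 0.877% that fell. The 3 that fell include Nr4a1 itself, at -1.34.

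Markers of cell types were followed on the same muscle arrays. Of 13 tested skeletal fibre markers, 2 rose and 0 fell, with a median of 0.32. Those that rose were the sarcomere protein Neb (2.18, limma, adjusted p = 0.00083) and the calcium release channel Ryr1 (1.76, 0.0105). Over all rows the same fit called 3.73% higher. That count of 447 became 49 after scaling and 1 with muscle fitted alone, where the markers were not followed singly. The array medians of the fibre markers were 1.03, 1.31, 0.32 and -1.16. Replicate 4 was lowest and replicate 2 highest, as for all 3 members after centring. Cardiac and slow muscle markers (0 of 5 passed, median 0.59) had array medians of 0.98, 0.84, 0.14 and -1.24. Of 4 adipocyte markers 1 rose (Cidea, 2.23, limma, adjusted p = 0.0078), and of 3 erythroid markers 1 rose (Slc4a1, 2.41, 0.00573). Each of them had values on 3 arrays. Of 3 leukocyte, 5 endothelial and 6 fibroblast markers, 0 passed (limma), with medians of -0.14, 0.20 and -0.07. Male germ cell markers (0 of 5 passed, median -0.28) and exocrine pancreas markers (0 of 6, median -0.20) did not pass either. At an unadjusted p under 0.05 these lists held 0 leukocyte, 1 endothelial, 2 fibroblast, 0 germ cell, 0 pancreas and 2 cardiac markers, and array weights gave 0 for each of them. The fibre, adipocyte and erythroid lists held 3, 1 and 2 such markers, and array weights called 2, 1 and 1. Over all rows 18.9% had an unadjusted p under 0.05. The part of these markers in the members' values was not tested.

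Likeness was measured as Pearson's r of the centred ratios over the arrays that 2 genes share, at least 20, among 6554 genes. It is a description, since the arrays share pools, dyes and their own spread, and muscle carries much of it. For Dcaf13 the most alike gene was Fam120b (r = 0.947, 24 arrays), followed by the G protein subunit Gna11 (0.94, 23 arrays) and Acadvl, an enzyme of fatty acid oxidation (0.92, 24 arrays). For Ago2 it was Armc1 (0.92, 24 arrays), then the ribosome recycling factor Abce1 (0.90, 23 arrays) and Fam120b (0.88, 24 arrays). For Fam120b it was Dcaf13, then the exonuclease Trex1 (0.90, 23 arrays) and Dlec1 (0.88, 22 arrays). Over the 20 arrays outside muscle, r was 0.72 between Dcaf13 and Fam120b, 0.46 between Ago2 and Fam120b and 0.41 between Dcaf13 and Ago2. Other genes were not compared over these 20 arrays, so how usual such values are is not known. The muscle means of the most alike genes that are not members were 2.09 for Gna11, 1.35 for Acadvl, 2.25 for Armc1, 2.39 for Abce1, 1.31 for Trex1 and 2.61 for Dlec1.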

How the data were processed

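The authors deposited log2 ratios, 1 value per probe and array; no source used here states the scale, centring, direction or software behind them. Total RNA (20 µg) was labelled indirectly, per the labels' protocols. Sizes above 12 (4874 of 392774 values) were treated as missing. Of 20205 probes, 13891 have 1 symbol, and probes of a symbol were averaged. Arrays were centred on their medians. limma 3.58.1 (R 4.3.3) fitted organ coefficients and a dye term to the 20 arrays outside muscle for the members, and to all 24 arrays for other genes in muscle, with Benjamini-Hochberg adjustment over all rows tested in an organ (at most 1 array missing, both dye orientations measured). The fit of the 20 arrays outside muscle was run on simulated data with normal errors, and muscle was not simulated. The limit set on false calls left out the unweighted fit at the arrays' own unequal spreads. The members and lists were chosen with earlier results of these data known. In each list, genes past the test in muscle and the 2 highest and 2 lowest others are named; for likeness, the 3 highest. The number of arrays limits precision. Alternatives were centring, scaling, array weights, dye, filters, probe summary, organ fitted alone, replicate block and leaving out each replicate. Across organs, arrays with the same number correlated at a median of 0.043 and other arrays of the same dye at 0.041. Whether a number also marks a shared batch was not tested.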

Additional observations from a re-analysis of the deposited data

Results flagged for a closer look

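Ago2 lay above 0 on all 4 spleen arrays and below 0 on all 4 brown adipose tissue arrays. The difference of the means was 0.85 on the log2 scale, and this pair was not tested on its own. The F test among the 5 organs did not pass for Ago2 (limma, adjusted p = 0.401).

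Within the 18 groups of 4 arrays (3 genes in 6 organs), 0 held an array whose distance from its neighbour exceeded Dixon's critical value for 4 values.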

How the results depend on the processing

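Over 426 alternative values of 29 results, 381 kept their direction and, where tested, their side of the threshold (a count of calls, within 1.5 times; an untested value, within 1 SD), 22 reversed, 20 moved and 3 came to pass; the causes were not tested. Each member has 1 probe and values on all 24 arrays, so some settings could change the p of its organ values but not the estimate. These were the median of probes, no dye term, a dye term for each organ, the replicate block, rows with 4 values, all 24 arrays and the organ fitted alone. Under them the direction was fixed in advance. Ago2 in spleen passed with values above 12 kept (0.72), by the median of probes (0.72) and over rows with 4 values (0.72). Dcaf13 in lung was at 0.0174 after scaling and 0.0338 with array weights, and Fam120b in testis at 0.0177 without centring. The next settings were added after seeing the data. With the ratios turned on the arrays that have the mutant in Cy3, Ago2 was at -0.0732 in lung, -0.12 in spleen, -0.13 in testis and -0.0665 in heart, Dcaf13 at -0.23 in testis, -0.0643 in heart and -0.11 in brown adipose tissue, and muscle at 0.54 for Dcaf13, 0.25 for Ago2 and 0.0557 for Fam120b. Leaving out muscle replicates 2 and 4 is given above.

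Leaving out each replicate in turn gave -0.13 to 0.14 for Dcaf13, 0.078 to 0.25 for Ago2 and -0.42 to -0.17 for Fam120b in lung, 0.0419 to 0.60 for Dcaf13 (lowest without replicate 3, highest without replicate 4, where limma's adjusted p was 0.224), 0.60 to 0.80 for Ago2 and -0.0301 to 0.31 for Fam120b in spleen, -0.058 to 0.15 for Dcaf13, -0.0032 to 0.0548 for Ago2 and -0.0341 to 0.0523 for Fam120b in testis, 0.0294 to 0.23 for Dcaf13, -0.0513 to 0.13 for Ago2 and -0.13 to 0.0361 for Fam120b in heart, and 0.022 to 0.27 for Dcaf13, -0.19 to -0.0902 for Ago2 and -0.0722 to 0.0629 for Fam120b in brown adipose tissue. Leaving out heart replicate 2 put Ago2 in heart at -0.02.

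The 447 rows higher in muscle became 49 after scaling (where Dcaf13 was at 1.54, Ago2 at 1.10 and Fam120b at 1.24), 270 with array weights, 1 with muscle fitted alone and 144 to 472 without a replicate (144, 155 and 245 without replicates 1, 2 and 3). The 105 lower rows became 267 without centring (402 higher), 1 after scaling, 12 with array weights, 61 over rows with 4 values, 0 with muscle fitted alone (limma; 1081 rows had an unadjusted p under 0.05) and 36 to 100 without a replicate (43, 36, 61 and 64 without replicates 1 to 4 in every organ, 100 without heart replicate 2). With a replicate block, 393 were higher and 89 lower, and Ago2 in spleen had limma's adjusted p at 0.078; the block changed no call of a member.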
